A study of Bos taurus with 8 samples.

Results

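Endothelial cells line blood and lymph vessels. This account follows 32 genes that mark them, 28 of blood vessel endothelium and 4 of lymphatic endothelium (FLT4, LYVE1, PROX1 and MMRN1). They were picked by symbol from a table of 33132 genes, in which 31 of the 32 had a row. ICAM2, an endothelial adhesion molecule, had no row under that name and was not analysed here. The rumen is the fermentation chamber of the ruminant stomach, a muscular wall with a squamous epithelium. RNA was sequenced from rumen of 4 adult steers (castrated males) and 4 newborn male calves, all angus crosses, with 1 library per animal. Steers and calves differ in age and castration together, and those cannot be told apart here. No label gives diet, age in days, site or depth of sampling, or batch, so their part was not tested.

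Blood vessel endothelium is built and kept by a small set of signals. VEGF ligands act on the receptors KDR and FLT1, angiopoietins on TEK with its partner TIE1, and BMP9 and BMP10 on the ACVRL1 and ENG pair. ETS factors such as ERG and FLI1 and the related factors SOX7, SOX17 and SOX18 switch on the endothelial programme. Cadherin-5 and PECAM1 then hold neighbouring cells together. Lymphatic endothelium is set apart by PROX1 and by signalling of VEGFC and VEGFD through FLT4. In the rumen, vessels below the epithelium carry off the fatty acids that fermentation yields.

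Blood vessel genes were mostly lower in steers. Of 26 tested, 23 had a log2 change below 0 and 3 above (PLVAP, FLT1 and SOX7), where 47.6% of all tested genes lay below 0. Of the 26, 14 fell at a Benjamini-Hochberg adjusted p under 0.05 in edgeR's quasi-likelihood test, 12 did not pass and 0 rose. The number at an unadjusted p under 0.05 and higher in steers was also 0, and DESeq2 and limma-voom called 0 as higher too. Over all 16326 tested genes, 9.16% were called lower and 7.7% higher, 16.9% in either direction. The 14 changes ran from 1.70-fold to 4.61-fold lower in steers. The median log2 change of the 26 genes was -0.92, against 0.04 over all tested genes. For 15 of the 26, every steer lay below every calf, which held for 12.8% of all tested genes. In bulk tissue, fewer endothelial cells, less RNA of these genes per cell and a larger share of RNA from other tissue cannot be told apart.

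**Figure D1:**
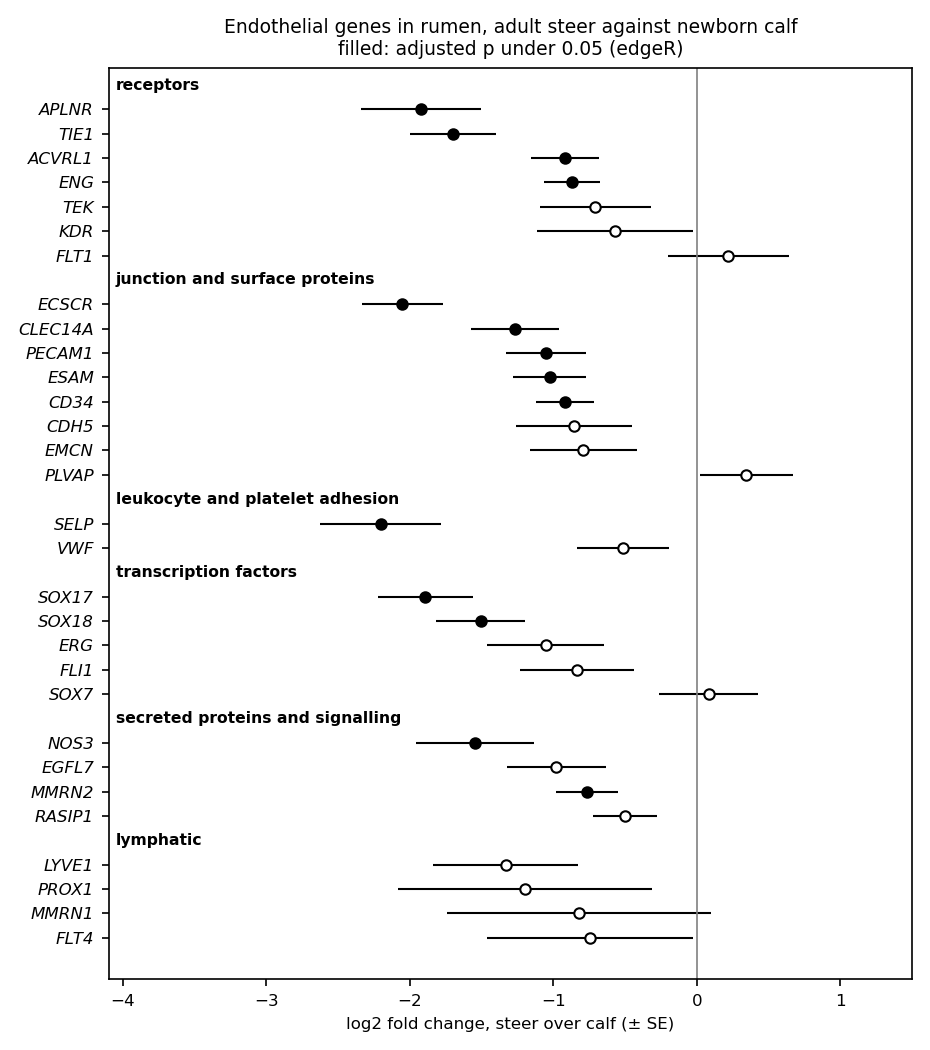
Log2 fold change of the 30 tested genes, steer over calf, with its standard error, grouped by role. Filled points are the 14 genes called lower in steers, and no gene was called higher.

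Values are CPM (counts divided by library size scaled with the TMM method), with mean ± SD over 4 animals where a mean is given. Library totals were 42322022 to 54449684 counts. Calf 2 had the highest level among calves for 20 of the 30 tested genes, and steer 1 or steer 2 had the lowest among steers for 12 and 14. The 26 blood vessel genes summed to 459 to 694 CPM in steers and 739 to 1249 CPM in calves. Calf 2 had the highest summed fibroblast marker level of all libraries, and steer 4 the lowest smooth muscle level among steers. Without both, 10 blood vessel genes were called lower. There were 8 without steer 1 and 9 without calf 4. Of all counts, 3.92% to 7.69% in steers and 1.81% to 2.56% in calves fell on mitochondrial genes, and the part of that difference in the results was not tested.

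Among receptors, 4 of 7 fell (9.16% of all tested genes did), led by the orphan receptor of the angiopoietin system and the apelin receptor. Positions here are those of the deposited counts, for which no source used here names the genome build. TIE1 (chromosome 3, 102694836 to 102714367) had 7.22, 5.43, 12.5 and 11.03 CPM in steers 1 to 4, against 26.8, 36.3, 21.8 and 32.9 CPM in calves 1 to 4. The highest steer was well below the lowest calf, and the log2 change was -1.70 ± 0.30 (SE, edgeR adjusted p = 0.00515). APLNR, the receptor of apelin on endothelium (chromosome 15, 80445007 to 80448574), had 2.80, 5.79, 6.63 and 5.33 CPM in steers and 18.3, 7.90, 20.6 and 31.3 CPM in calves. The groups did not overlap, although calf 2 came near the steers, and the log2 change was -1.92 ± 0.42 (edgeR adjusted p = 0.0132). With the mean of smooth muscle markers as a covariate APLNR did not pass, at a log2 change of -1.89.

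The pair that binds BMP9 and BMP10 fell together, by less. ENG, the coreceptor (chromosome 11, 98497640 to 98529460), had 75.3, 66.2, 63.5 and 82.7 CPM in steers, against 132.5, 111.6, 115.6 and 165.4 CPM in calves. All steers lay below all calves (-0.87 ± 0.20, edgeR adjusted p = 0.0151). ACVRL1, the kinase of the pair (chromosome 5, 27943335 to 27957082), had 23.4, 19.1, 22.7 and 26.1 CPM in steers and 34.4, 58.7, 31.4 and 47.9 CPM in calves. Its change was -0.92 ± 0.23 (edgeR adjusted p = 0.0252). The call of ACVRL1 ended without steer 1, steer 2, steer 3, calf 2 or calf 4, at changes of -0.92 to -0.74. The log2 ratio of ACVRL1 to ENG was -1.66 ± 0.13 in steers and -1.63 ± 0.48 in calves, with overlapping groups.

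The angiopoietin and VEGF receptors other than TIE1 did not pass. TEK, which binds the angiopoietins, had 4.60 to 7.91 CPM in steers and 6.06 to 17.9 CPM in calves, with calf 2 far above the other calves (log2 change -0.71 ± 0.38, edgeR adjusted p = 0.242). KDR, the main signalling receptor for VEGFA, had 3.35, 4.90, 16.4 and 16.7 CPM in steers and 9.41, 26.0, 15.6 and 10.5 CPM in calves. Steers 1 and 2 lay below every calf, while steers 3 and 4 lay within the calf range, and the change was -0.57 ± 0.54 (edgeR adjusted p = 0.519). FLT1, a VEGF receptor that also acts as a trap for the ligand, had 9.50, 8.63, 21.2 and 24.9 CPM in steers and 8.11, 22.6, 11.5 and 12.97 CPM in calves. The change was 0.22 ± 0.42 (edgeR adjusted p = 0.770), and it was -0.069 without steer 4.

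**Figure D2:**
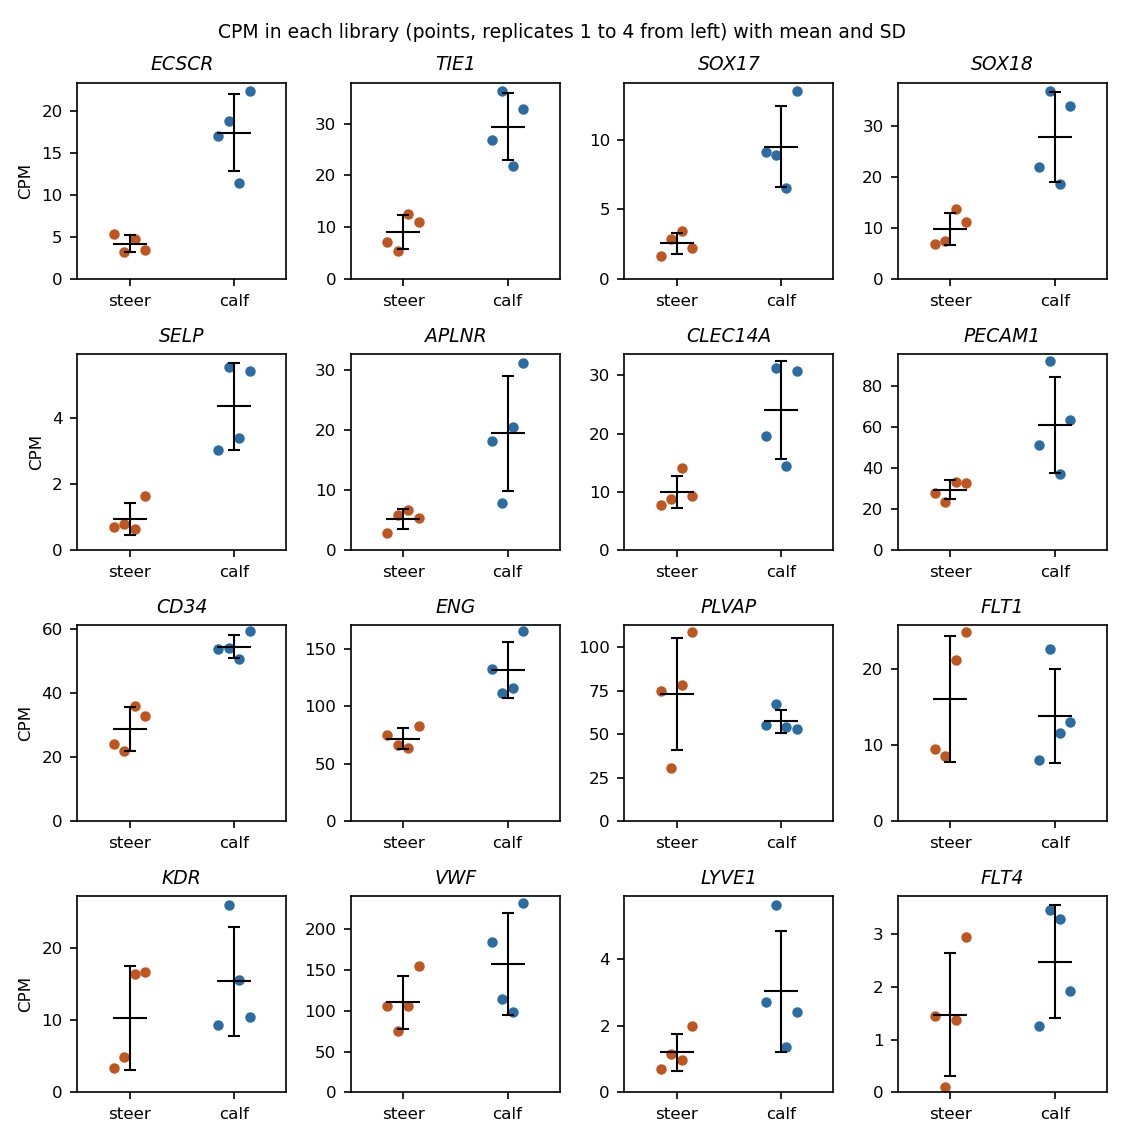
CPM of 16 endothelial genes in each library, steers left of calves, with the group mean and SD (n = 4 each) and an axis from 0 in each panel. ECSCR, TIE1, SOX17, SOX18 and SELP show no overlap between the groups, whereas KDR, FLT1 and FLT4 overlap.

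Of the proteins of cell junctions and the cell surface, 5 of the 8 tested fell, against 9.16% of all tested genes. ECSCR, a surface protein of endothelial cells (chromosome 7, 50720933 to 50730677), had 5.32, 3.23, 4.73 and 3.49 CPM in steers and 16.96, 18.8, 11.4 and 22.3 CPM in calves. Every calf had more than 2 times the highest steer, and the log2 change was -2.05 ± 0.28 (edgeR adjusted p = 0.00156). CLEC14A, a lectin-like protein of the vessel wall, had 7.75 to 14.1 CPM in steers and 14.5 to 31.3 CPM in calves (-1.27 ± 0.31, edgeR adjusted p = 0.0200). Its call ended without steer 1 or calf 4, at changes of -1.16 and -1.12.

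PECAM1, the platelet and endothelial adhesion molecule (chromosome 19, 48525295 to 48588539), had 28.02, 23.7, 33.3 and 33.0 CPM in steers. In calves it had 51.5, 92.2, 37.1 and 63.4 CPM, all above the steers but widely spread. The change was -1.05 ± 0.28 (edgeR adjusted p = 0.0288), and the call ended without steer 1, steer 2, steer 3, calf 1, calf 2 or calf 4, at -1.12 to -0.78. CD34, a sialomucin of endothelium and blood progenitors, had 24.2, 21.9, 36.1 and 32.9 CPM in steers and 53.7, 54.1, 50.8 and 59.4 CPM in calves. Calves varied little here (54.5 ± 3.6 CPM), and the change was -0.92 ± 0.20 (edgeR adjusted p = 0.0137). ESAM, a tight junction adhesion molecule, had 9.04 ± 1.37 CPM in steers and 18.4 ± 5.3 CPM in calves (-1.03 ± 0.25, edgeR adjusted p = 0.0215), and its call ended without steer 1 or calf 4 (-1.02 and -0.84).

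Cadherin-5, the defining adherens junction protein of endothelium, did not pass. CDH5 (chromosome 18, 34122721 to 34161590) had 4.45, 7.63, 17.02 and 11.5 CPM in steers and 14.3, 28.1, 16.4 and 14.8 CPM in calves. Steer 3 was above 3 of the 4 calves, and the change was -0.86 ± 0.40 (edgeR adjusted p = 0.178). EMCN, a sialomucin of capillaries and veins, had 5.58 ± 2.73 CPM in steers and 9.66 ± 2.15 CPM in calves (adjusted p = 0.181). PLVAP, the protein of the diaphragms that span endothelial pores, had 74.7, 30.7, 78.0 and 108.6 CPM in steers. In calves it had 55.3, 67.2, 54.3 and 53.1 CPM, so steer 2 lay below every calf and the other 3 steers above every calf. The PLVAP change was 0.34 ± 0.33 (edgeR adjusted p = 0.515).

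The genes that catch white cells and platelets differed in level and in change. SELP, P-selectin, is stored in endothelial cells and platelets and shown on the surface when vessels are stimulated. SELP (chromosome 16, 37241576 to 37285051) had 0.700, 0.779, 0.633 and 1.65 CPM in steers and 3.03, 5.55, 3.41 and 5.44 CPM in calves. No steer reached the lowest calf, and the change of -2.20 ± 0.42 was the largest among the members (edgeR adjusted p = 0.00724). VWF, von Willebrand factor, is packed in the same endothelial granules as P-selectin. It had 105.9, 75.7, 105.3 and 154.5 CPM in steers and 184.3, 114.8, 98.7 and 232.3 CPM in calves (-0.51 ± 0.32, edgeR adjusted p = 0.308). The groups overlapped for VWF, and the log2 ratio of SELP to VWF was -6.86 ± 0.40 in steers and -5.13 ± 0.67 in calves, with every steer below every calf. SELE, E-selectin, which needs inflammatory stimulation, had no count in any of the 8 libraries. A count of 0 allows up to 0.0835 CPM in a steer library and 0.0699 CPM in a calf library, taking 3 counts as the limit.

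Of 5 transcription factors of blood vessel endothelium, 2 fell, against 9.16% of all tested genes. SOX17, needed in arterial endothelium of mice (chromosome 14, 22229926 to 22231726), had 1.67, 2.87, 3.45 and 2.23 CPM in steers, against 9.08, 8.88, 6.50 and 13.5 CPM in calves. The change was -1.89 ± 0.33 with no overlap (edgeR adjusted p = 0.00491). SOX18, which also starts lymphatic fate in mice (chromosome 13, 53823431 to 53825287), had 6.90, 7.41, 13.6 and 11.2 CPM in steers and 21.9, 36.8, 18.7 and 33.8 CPM in calves. Its change was -1.51 ± 0.31 (edgeR adjusted p = 0.0103), and it did not pass with the mean of fibroblast markers as a covariate, at -1.22.

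SOX7, the remaining relative, did not pass. It had 10.4, 9.58, 18.8 and 18.7 CPM in steers and 10.2, 17.3, 18.6 and 8.20 CPM in calves, with broadly overlapping groups. The change was 0.08 ± 0.34 (edgeR adjusted p = 0.899), and its sign turned with scaling by library size only (-0.017). The sign also turned without steer 3, steer 4, calf 1 or calf 4, at -0.091 to -0.027. The log2 ratio of SOX7 to SOX17 was 2.45 ± 0.55 in steers and 0.48 ± 0.97 in calves, and that of SOX7 to SOX18 was 0.54 ± 0.16 in steers and -1.06 ± 0.83 in calves. Both ratios were higher in every steer than in every calf. Since SOX17 and SOX18 fell, a gene with no change is also higher relative to them in steers. The share of all tested genes with such ratios was not computed, and the ratios were not tested. The ratio of SOX18 to SOX17 overlapped between the groups, at 1.91 ± 0.40 in steers and 1.54 ± 0.36 in calves.

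Neither of the ETS factors passed. ERG had 2.60, 1.78, 5.25 and 6.03 CPM in steers and 6.73, 11.4, 7.70 and 6.73 CPM in calves. All steers were below all calves, but the change of -1.05 ± 0.41 did not pass (edgeR adjusted p = 0.108). DESeq2 called it lower, at -1.06. FLI1, which blood cells also express, had 2.48 ± 0.93 CPM in steers and 4.43 ± 1.92 CPM in calves (edgeR adjusted p = 0.185).

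Among secreted and signalling proteins, NOS3 and MMRN2 fell. NOS3, the endothelial nitric oxide synthase (chromosome 4, 113577075 to 113595527), had 1.82, 2.51, 4.30 and 4.07 CPM in steers and 7.31, 16.5, 6.10 and 7.30 CPM in calves. Calf 2 stood far above the other calves, and the change was -1.55 ± 0.41 (edgeR adjusted p = 0.0300). The call ended without steer 1, steer 2, calf 1 or calf 2, at -1.65 to -1.12, and 11.1% of the counted span of NOS3 is shared with other genes, among them ATG9B. Reads in the shared stretch were dropped.

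MMRN2, a matrix protein of endothelial cells that binds VEGFA, had 7.82, 9.24, 11.1 and 12.5 CPM in steers and 17.7, 19.7, 14.9 and 16.8 CPM in calves. The change of -0.77 ± 0.21 was the smallest of those called (edgeR adjusted p = 0.0359). It lost its call when any library but steer 4 was left out, at -0.83 to -0.65. EGFL7, a secreted endothelial protein whose gene hosts the microRNA MIR126, had 95.4, 84.8, 71.6 and 48.6 CPM in steers and 146.3, 116.8, 82.6 and 246.8 CPM in calves (-0.98 ± 0.35, edgeR adjusted p = 0.0818). Steer 1 and steer 2 lay above calf 3, and without calf 3 EGFL7 was called at -1.18. RASIP1, which links RAS-family signals to vessel lumen formation in mice, had 47.0 ± 8.3 CPM in steers and 66.6 ± 16.2 CPM in calves (edgeR adjusted p = 0.154).

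**Figure D3:**
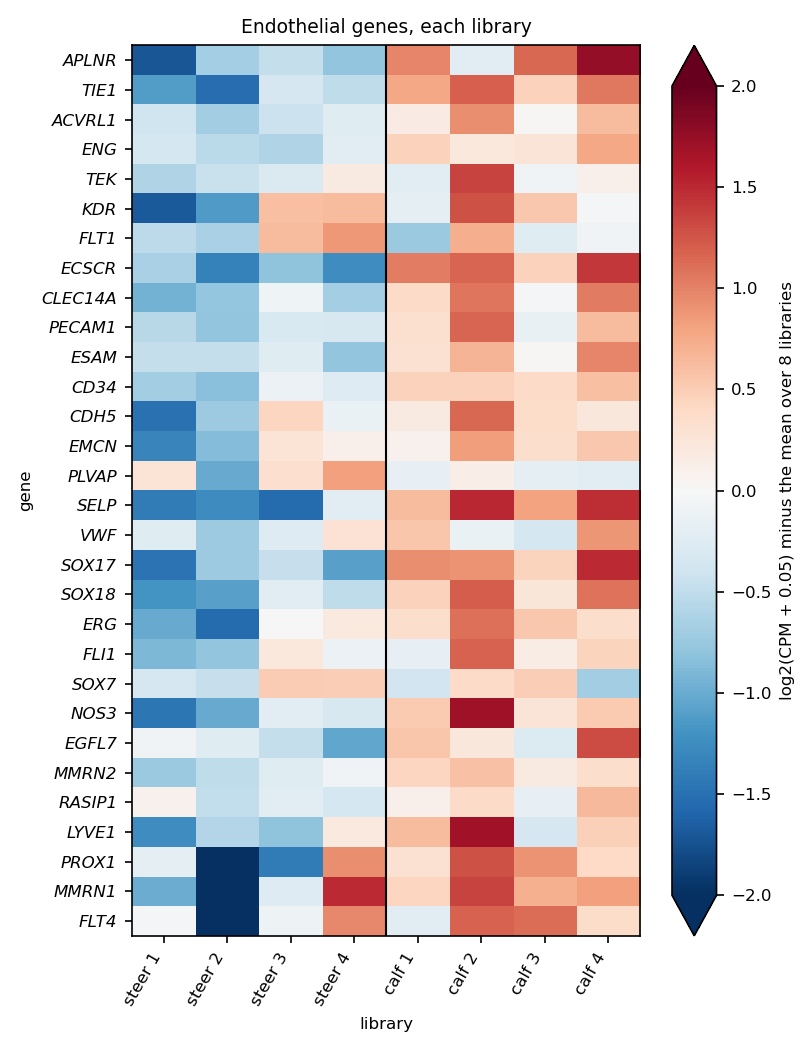
Log2(CPM + 0.05) of each tested gene minus its mean over the 8 libraries, steers left and calves right of the line, genes ordered by role and change. Steer 1 or steer 2 is the lowest steer for 12 and 14 genes, and calf 2 is the highest calf for 20 of 30.

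Lymphatic genes were at low levels and none passed. All 4 log2 changes were below 0, with a median of -1.01, and edgeR called 0 of 4, with 1 (LYVE1) at an unadjusted p under 0.05. DESeq2 called LYVE1 as lower and limma-voom called none. LYVE1, a hyaluronan receptor of lymphatic endothelium and some macrophages (chromosome 15, 42102179 to 42116470), had 0.700, 1.14, 0.969 and 2.00 CPM in steers and 2.702, 5.64, 1.37 and 2.43 CPM in calves. Steer 4 lay above calf 3, and the change was -1.33 ± 0.50 (edgeR adjusted p = 0.101).

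FLT4, the receptor for VEGFC and VEGFD (chromosome 7, 496590 to 537893), had 1.45, 0.111, 1.38 and 2.95 CPM in steers and 1.26, 3.45, 3.28 and 1.92 CPM in calves. Steer 2 held 4 counts of it, and the change was -0.74 ± 0.72 (edgeR adjusted p = 0.523). PROX1, the factor that defines lymphatic identity (chromosome 16, 69530598 to 69586099), had 6, 0, 2 and 22 counts in steers and 10, 30, 18 and 12 counts in calves. That is at most 0.502 CPM in any library, and the change of -1.20 ± 0.89 was not distinguishable from 0 at this depth (edgeR adjusted p = 0.397). MMRN1, a secreted multimerin of lymphatic endothelium and platelets, had 10, 0, 24 and 92 counts in steers and 32, 88, 44 and 48 counts in calves. Steer 2 was lowest for FLT4, PROX1 and MMRN1, and steer 4 was the highest steer for all 4 lymphatic genes. The standard errors of FLT4, PROX1 and MMRN1 (0.72 to 0.92) leave room for changes of either sign.

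Per kilobase of counted span, which includes introns, the members ranged widely in level. In calves SOX18 (14.97 CPM per kb), CLEC14A (12.7) and EGFL7 (12.3) were highest, and MMRN1 (0.00786) and PROX1 (0.00615) lowest of those with counts. In steers EGFL7 (6.25 CPM per kb), SOX18 (5.27) and CLEC14A (5.25) led, followed by PLVAP (3.86) and RASIP1 (3.46). SOX18 and CLEC14A, at 5.27 and 5.25 CPM per kb in steers, did not differ beyond their spread. Spans ran from 1.80 kb for SOX17 to 256 kb for ERG, and long spans that are mostly intron lower this measure.

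Levels relative to other endothelial genes were also compared. Each member was set against the geometric mean of 5 pan-endothelial genes (PECAM1, CDH5, TIE1, ESAM and CLEC14A) in the same library. That mean was 9.13, 9.51, 16.1 and 12.3 CPM in steers and 22.7, 35.9, 19.0 and 29.9 CPM in calves. Since 4 of these 5 genes fell, a gene with no change is higher relative to them in steers. Relative to that mean, 4 of the other 25 members were higher in every steer than in every calf (PLVAP, FLT1, SOX7 and RASIP1), which held for 46.9% of the other tested genes. The log2 ratio of PLVAP was 2.54 ± 0.68 in steers and 1.14 ± 0.32 in calves. That of FLT1 was 0.34 ± 0.50 in steers and -1.01 ± 0.39 in calves. Of the 25, SOX18 alone was lower in every steer (2.82% of the other tested genes), at -0.28 ± 0.12 in steers and 0.04 ± 0.10 in calves. These ratios were not tested.

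**Figure D4:**
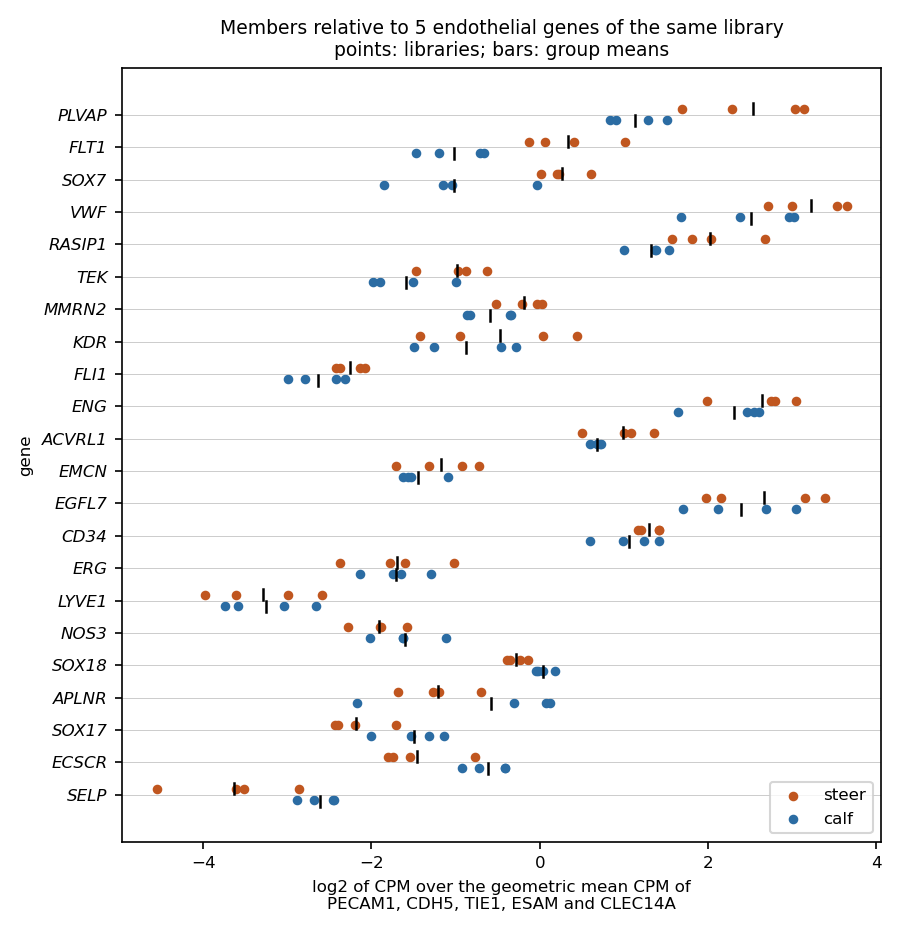
Log2 of each gene's CPM over the geometric mean CPM of 5 endothelial genes in the same library, steers above calves in each row, for 22 genes. PLVAP, FLT1 and SOX7 lie to the right in steers, and SELP and ECSCR at the bottom have lower means in steers (-3.64 and -1.46) than in calves (-2.62 and -0.62).

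Ratios between related receptors were not tested and are given as values. The log2 ratio of FLT1 to KDR was 1.49, 0.81, 0.37 and 0.57 in steers and -0.21, -0.21, -0.44 and 0.30 in calves. Every steer thus had relatively more FLT1 than every calf, by 0.95 on average. The log2 ratio of TEK to TIE1 was -0.58 ± 0.43 in steers and -1.75 ± 0.53 in calves, with steer 3 (-1.12) below calf 2 (-1.02).

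Genes of a wider list of vascular ligands and their partners were called in both directions. Besides ligands of the receptors above, the list holds genes of other systems, such as adrenomedullin, semaphorins and PDGFB. Of 34 tested members of that list, 8 fell and 4 rose, with a median log2 change of -0.58 (all genes 0.04). The share called lower was 23.5%, against 9.16% of all tested genes. The share called higher was 11.8%, near the 7.7% of all tested genes. VEGFD, a ligand of FLT4 made by stromal cells, fell to 0.05, 0.223, 0.335 and 0.0351 CPM in steers, against 1.40, 1.59, 2.82 and 2.09 CPM in calves (-3.60 ± 0.69, edgeR adjusted p = 0.00746). The values of steer 1 and steer 4 lie below the limit of 3 counts per library, so the size of the change is uncertain. CCBE1, which helps to cut VEGFC into its active form, had 0.925 ± 0.459 CPM in steers and 2.86 ± 0.86 CPM in calves (-1.63 ± 0.46, edgeR adjusted p = 0.0369). Its call ended without steer 1, steer 3, calf 1, calf 2 or calf 4, at -1.65 to -1.37. VEGFC had 1.00, 1.67, 1.75 and 2.84 CPM in steers and 3.94, 3.90, 2.71 and 3.76 CPM in calves (-0.97 ± 0.37, edgeR adjusted p = 0.0974), and was called lower with DESeq2 and without steer 4 (-1.27).

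VEGFA, the main ligand of KDR, had 79.2, 73.0, 147.4 and 208.9 CPM in steers and 34.2, 168.8, 81.9 and 47.2 CPM in calves. Calf 2 lay above 3 of the 4 steers, and the change of 0.61 ± 0.52 did not pass (edgeR adjusted p = 0.458). ANGPT1, the activating ligand of TEK, had 0.361 ± 0.235 CPM in steers and 1.04 ± 0.38 CPM in calves (edgeR adjusted p = 0.0893), and was called lower without steer 2 (-2.04) and with DESeq2. ANGPT2 could not be measured, since its whole counted span lies in other genes and such reads were dropped. DLL4, a Notch ligand of sprouting and arterial cells, had 10.9 ± 4.3 CPM in steers and 10.4 ± 4.2 CPM in calves (0.08 ± 0.37, edgeR adjusted p = 0.916), with a sign that turned under scaling by library size only (-0.025) and without steer 3, calf 1 or calf 3 (-0.20 to -0.055).

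Genes of the adrenomedullin system were called in both directions. Adrenomedullin, encoded by ADM, signals to vessels through CALCRL joined to RAMP2 or RAMP3. ADM rose to 42.1, 28.1, 31.4 and 60.4 CPM in steers, against 7.83, 20.3, 15.9 and 7.99 CPM in calves (1.64 ± 0.38, edgeR adjusted p = 0.0165). RAMP3 rose to 10.8, 4.90, 11.99 and 18.6 CPM in steers, against 2.14, 3.93, 0.884 and 1.30 CPM in calves (2.48 ± 0.54, edgeR adjusted p = 0.0126). CALCRL fell to 2.80 ± 1.34 CPM in steers, against 8.33 ± 2.06 CPM in calves (-1.57 ± 0.39, edgeR adjusted p = 0.0223), and RAMP2 to 19.1 ± 2.9 CPM, against 53.0 ± 17.3 CPM in calves (-1.47 ± 0.25). RAMP2 was named after its values were seen, as the partner of RAMP3. The CALCRL call ended without steer 1, calf 2 or calf 4, at -1.56 to -1.40, and that of ADM with library-size scaling (1.47), which also ended those of NRP2, SEMA3G, CA4, NOSTRIN, ACVRL1, MMRN2, NOS3 and PECAM1.

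Guidance cues and growth factors of the vessel wall made up most of the rest. PDGFB, which endothelium makes to recruit pericytes, had 4.76 ± 1.96 CPM in steers and 18.8 ± 7.3 CPM in calves (-1.98 ± 0.39, edgeR adjusted p = 0.00815), with 21.2% of its span shared with another gene. SEMA3G, a semaphorin of arterial endothelium, fell by 1.51 ± 0.39 on the log2 scale, and the call ended without steer 1, calf 1, calf 2 or calf 4 (-1.52 to -1.29). SEMA3A, a repulsive guidance cue, had 0.106 ± 0.133 CPM in steers and 1.80 ± 0.86 CPM in calves (-4.097 ± 0.89), and with steer 3 at 0 counts the size is uncertain. SEMA3C, another secreted semaphorin, rose by 1.68 ± 0.35. NRP2, a coreceptor for VEGFC and semaphorins, had 35.5, 101.3, 106.3 and 38.3 CPM in steers and 23.6, 37.7, 21.3 and 15.1 CPM in calves (1.53 ± 0.43, edgeR adjusted p = 0.0369). NRP2 lost its call without steer 2, steer 3, calf 1, calf 3 or calf 4 (1.26 to 1.51). With smooth muscle as a covariate neither SEMA3C (1.10) nor NRP2 (0.83) passed.

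Of 49 tested endothelial genes outside the member list, 12 were called lower (RAMP2, also in the ligand and partner list, among them) and 1 higher, with a median log2 change of -0.78. These shares were 24.5% and 2.04%, against 9.16% and 7.7% of all tested genes. ACKR1, the chemokine-binding receptor of small veins, had 0.700, 0.612, 0.745 and 0.842 CPM in steers and 4.47, 5.29, 3.16 and 5.69 CPM in calves. That is 6.38-fold lower in steers with tight groups (-2.67 ± 0.33, edgeR adjusted p = 0.000813). The connexins of arterial endothelium GJA5 and GJA4 fell by 1.73 ± 0.33 and 1.70 ± 0.29 on the log2 scale. TMEM88, a membrane protein that dampens Wnt signals, and ARHGEF15 had changes of -1.78 ± 0.29 and -1.69 ± 0.29. NOSTRIN, which binds NOS3 and moves it in the cell, had -1.65 ± 0.44, and its call ended without steer 1, steer 2, calf 2 or calf 4 (-1.70 to -1.31).

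The gene called higher was CA4, a carbonic anhydrase on the surface of capillary endothelium. CA4 had 5.65, 5.85, 5.29 and 8.21 CPM in steers and 2.33, 2.91, 1.39 and 3.43 CPM in calves (1.31 ± 0.34, edgeR adjusted p = 0.0254). Every steer was above every calf, although the call ended without calf 1 or calf 3 (1.11 and 1.28). In a list of 8 tested lymphatic genes outside the members, 1 fell (FOXC2, a factor of lymphatic valves, at -2.48 ± 0.59, named after its values were seen) and 1 rose (NRP2). Each is 12.5% of the list, near the 9.16% called lower and 7.7% called higher over all tested genes. FOXC2 had 2, 4, 8 and 8 counts in steers and 38, 45, 34 and 12 counts in calves. Steer 1 lies below the limit of 3 counts per library, so the size of the FOXC2 change is uncertain. FOXC2 is also among the 12 above, and NRP2 among the ligands and partners that rose.

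Markers of other cell types were also followed, and their part in these results was not tested. Fits with a marker mean as a covariate are given as values. Over all tested genes, 9.16% were called lower and 7.7% higher. Of 10 tested fibroblast markers, 4 fell and 0 rose, and their summed level was 688 to 1594 CPM in steers and 1837 to 5318 CPM in calves, highest in calf 2. With the mean of the fibroblast list as a covariate, added after the data were seen, 6 blood vessel genes were still called lower (TIE1, ECSCR, SOX17, ENG, APLNR and SELP), the other 8 did not pass, at changes of -1.22 to -0.54, and the median of the 26 was -0.72. Every steer lay below every calf in summed fibroblast level. The covariate was instead the list's mean log2 CPM, in which each marker weighs equally. Its overlap between the groups was not examined, so this fit cannot be taken to tell fibroblast content apart from group. The changes of ESAM (-1.05) and CD34 (-0.88) were close to those without the covariate, and that of NOS3 was -0.74, against -1.55. Of 9 tested smooth muscle markers, 4 rose and 1 fell (ACTA2, smooth muscle actin, at a mean of 76.9 CPM in steers and 1314 CPM in calves). They summed to 10944 to 109320 CPM in steers and 6376 to 18591 CPM in calves, and DES, desmin, gave 27909 of a mean 57175 CPM in steers. With them as a covariate 10 blood vessel genes were called, EGFL7 among them. ACVRL1, APLNR, MMRN2, NOS3 and PECAM1 did not pass with that covariate, at changes of -1.89 to -0.69. CCBE1, CALCRL, SEMA3G and NOSTRIN did not pass with either covariate, at changes of -1.66 to -1.16, and CA4 did not with that of fibroblasts, at 1.424. Of 14 tested mural cell markers, which cover pericytes and vascular smooth muscle, 3 fell (21.4%) and 0 rose. Their summed levels were 418 to 771 CPM in steers and 472 to 655 CPM in calves.

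White cells, platelets or blood progenitors also express PECAM1, CD34, FLI1 or SELP in part. Of 10 tested leukocyte markers, 8 rose and 1 fell (CD14, a monocyte receptor, at 15.3 CPM in steers and 59.3 CPM in calves). The 14 leukocyte markers with a row summed to 61.9 to 126.4 CPM in steers and 52.8 to 122.2 CPM in calves. CD14 gave 59.3 of a mean 87.7 CPM in calves, so the sum hides the rise of the others. The median log2 change of the 10 tested was 1.72. AIF1 could not be measured, as its whole counted span is shared. The part of white cells in the results was not tested. Of 9 platelet and megakaryocyte markers with a row, 3 were at 0 in every library (PPBP, GP1BA and GP6), 3 were tested and none was called, and the sums were 22.7 to 47.4 CPM in steers and 16.6 to 25.1 CPM in calves. Of 3 tested erythrocyte markers 0 were called, with sums of 1.35 to 3.95 CPM in steers and 1.43 to 7.08 CPM in calves. Keratinocyte markers, which define the rumen epithelium, summed to 12445 to 18703 CPM in steers and 13691 to 19396 CPM in calves. Of 9 tested, 1 rose (11.1%, against 7.7% of all tested genes). Glia and neuron markers fell in 3 of 10 (30%, against 9.16% of all tested genes). Their sums were 20.4 to 28.3 CPM in steers and 41.2 to 55.9 CPM in calves. Mesothelial markers rose in 2 (33.3%) and fell in 1 (16.7%) of 6. They summed to 150 to 307 CPM in steers and 128 to 280 CPM in calves.

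**Figure D5:**
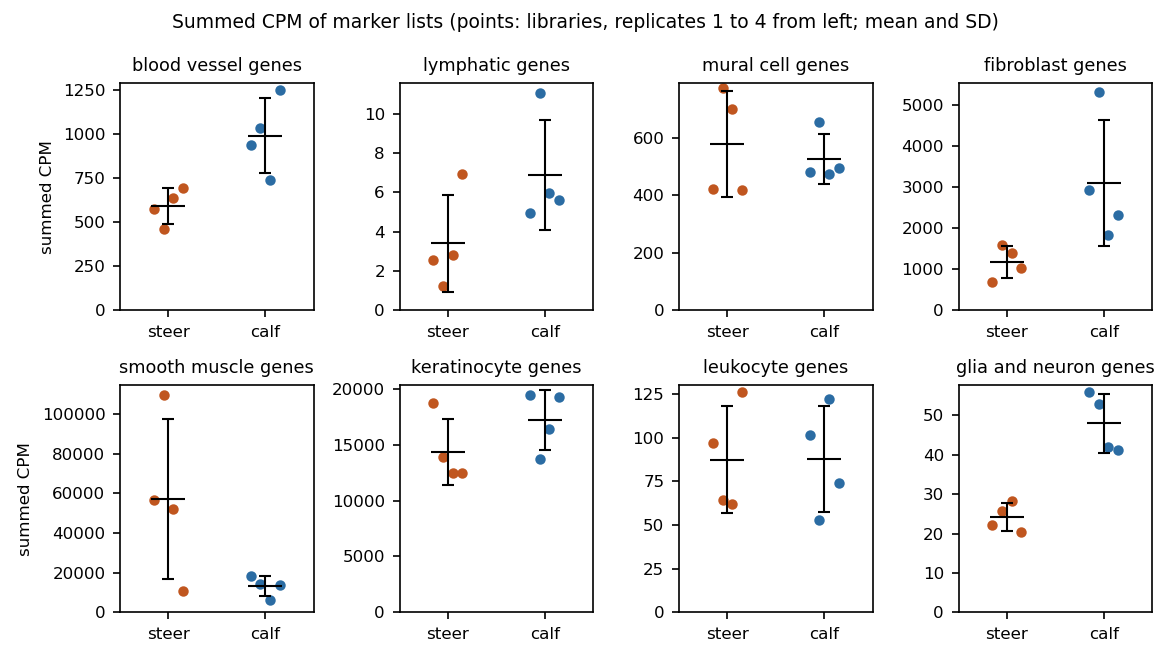
Summed CPM of 8 marker lists in each library, steers left of calves, with group mean and SD and an axis from 0 in each panel. Blood vessel genes do not overlap between the groups (459 to 694 CPM in steers, 739 to 1249 CPM in calves), and smooth muscle genes reach 109320 CPM in steer 2.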

How the data were processed

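Rumen RNA of 4 adult steers and 4 newborn calves was sequenced from both ends after random priming and dUTP second-strand synthesis, per the labels' protocols. The submitters' processing notes name Trimmomatic 0.39, STAR 2.7.11a, featureCounts 2.0.2 and DESeq2 1.42.0. The deposited file holds raw whole-number counts per gene, made by the authors with featureCounts over whole transcript spans, per the file headers. Introns therefore count, no strand option was set, each read of a pair was counted separately (86.9% to 89.0% of counts from 1 to 10 were even), and reads in more than 1 gene were dropped. No source used here names the genome build or annotation; positions are the file's own, 1-based. Chromosome numbers come from symbols matched to an ARS-UCD2.0 table (27567, 83.2%). Within a group, libraries differed by a chi-square of at least 113 per degree of freedom, so none was a repeat.

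The comparison of steers with calves used edgeR 4.0.16 under R 4.3.3, with filterByExpr, TMM, a robust quasi-likelihood fit and Benjamini-Hochberg adjustment over 16326 genes, called at an adjusted p under 0.05. The log2 change is steer minus calf, and its SE equals the size of the change over the root of the F statistic. P-values weigh the group difference against the spread between these animals, with that spread moderated across genes. The common biological coefficient of variation was 41.8%. Log ratios between members used CPM + 0.05. The labels number the animals and name no pairs. Same-numbered libraries correlated at -0.33 to 0.28, and 1 of 4 pairs was over 0.1, which is too few to exclude pairing.

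Members called, and PECAM1, CDH5, VWF, KDR, FLT4, LYVE1 and PROX1, are given in every library or by group; the other members shown in every library, and RAMP2 and FOXC2, were chosen after their values were seen. Of the other lists, up to 6 called genes per direction with at least 1 CPM in the higher group, and VEGFA, VEGFC, ANGPT1, ANGPT2 and DLL4, are named. The members, lists and alternatives were chosen with earlier results of these data known. DESeq2 1.42.0 and limma 3.58.1 served as alternatives.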

Additional observations from a re-analysis of the deposited data

Results flagged for a closer look

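In groups of 4, a library was looked at again where its gap to the nearest other library exceeded Dixon's 95% critical value as a share of the group's range, which chance gives in about 1 in 20 groups. Of 102 pairs of a gene and a group looked at, 6 did so. The genes share the same libraries, so the pairs are not independent and this count cannot be set against chance. In calf 2 there were 4 such values. CDH5 was at 28.1 CPM there, against 14.3 to 16.4 CPM in the other calves. TEK was at 17.9 CPM (others 6.06 to 7.49), NOS3 at 16.5 CPM (others 6.10 to 7.31) and PLVAP at 67.2 CPM (others 53.1 to 55.3). Without calf 2, NOS3 lost its call. SELP in steer 4 was at 1.65 CPM, against 0.633 to 0.779 CPM in the other steers, still below every calf. VEGFC in calf 3 was at 2.71 CPM, below the 3.76 to 3.94 CPM of the other calves and below steer 4.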

How the results depend on the processing

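Calls on TIE1, ECSCR, SOX17, ENG and SELP held in all 23 alternatives, and the other 9 called members lost theirs in at least 1. Blood vessel genes called lower numbered 14 in the main fit and 16 with DESeq2. There were 8 with the replicate block, which treats same-numbered animals as pairs, and 6 with the fibroblast covariate. The block ended the calls of ACVRL1, CLEC14A, ESAM, MMRN2, NOS3, PECAM1, ADM, CALCRL and NOSTRIN. The number was 8 to 14 with 1 library left out, and 11 with library-size scaling. That scaling shifted the median of all genes by -0.11 and the share of calls that were higher to 34.9%, from 45.7%. The lymphatic count was 0 with 1 library left out (0 to 0) and 1 with DESeq2. For ligands and partners, 4 higher became 2 with library-size scaling and 2 with the smooth muscle covariate (3 to 4 with 1 library left out), and 8 lower became 4 with the fibroblast covariate (4 to 10 with 1 left out; 4 without steer 1, calf 2 or calf 4). For the other endothelial and lymphatic genes together, 2 higher became 0 with library-size scaling, 4 with DESeq2 and 4 with the keratinocyte covariate (0 to 3 with 1 left out), and 12 lower became 7 with the fibroblast covariate (8 to 14 with 1 left out). Changes of sign were seen only in uncalled genes among these alternatives. They were SOX7 (-0.017 with library-size scaling, -0.091 to 0.27 with 1 left out), DLL4 (-0.025, and -0.20 to 0.33), FLT1 (-0.069 to 0.56 with 1 left out), FLT4 (0.050, smooth muscle covariate), TEK (0.079) and KDR (0.29), both with the fibroblast covariate. The cause of each was not tested. PROX1 and MMRN1, with 0 counts in steer 2 and at most 30 and 92 counts in any library, were measured with little precision (SE 0.89 and 0.92).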
